A study of Mus musculus with 8 samples.

Results

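The wild type arcuate nucleus was described from 4 of the 8 mouse RNA sequencing libraries of the study, those made from wild type littermates. These are 2 libraries from males, replicates 1 and 2, and 2 libraries from females, replicates 2 and 4, all C57BL/6 mice aged 4 months, with the arcuate nuclei of 2 mice pooled in each library. The males were controls of mice carrying Pomc-Cre and the miR-17-92flox/flox allele, in which the microRNA cluster is deleted in cells that express Cre. The females were controls of mice carrying Pomc-Cre and the miR-7-sponge, an RNA that sequesters miR-7 in those cells. The other 4 libraries, 2 from each of these manipulated genotypes, served only for comparison. Pomc-Cre is active in a minority of arcuate cells, and whether the wild type littermates carried Cre or a floxed allele was not given in the sources used here. The tissue was cut by hand from coronal brain sections under a microscope, so a library holds RNA from every cell type in the piece, and in such a bulk sample fewer cells of a type and less RNA per cell cannot be told apart. The 13130 protein-coding genes present in the deposited tables of both cohorts were joined by gene identifier, and each was described by its mean and its standard deviation (SD) of log2(FPKM + 1) over the 4 libraries. FPKM is the number of sequenced fragments scaled to transcript length and to the mapped fragments of the library, so levels can be compared between genes of different length. Values for 4 libraries are given in the order male replicate 1, male replicate 2, female replicate 2 and female replicate 4, and ± marks the SD with n = 4.

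FPKM summed to between 143125 and 149148 per wild type library, with a median gene at 4.67 to 5.04 FPKM and 104 to 125 genes listed at 0. The correlation of log2(FPKM + 1) across genes lay between 0.900 and 0.915 for the 6 pairs of wild type libraries, and genes are not independent replicates. Male replicate 1 had the lowest mean correlation with the other 7 libraries, at 0.899, where the other 3 wild type libraries had 0.908 to 0.911. Read totals per library were not used here, and the counting error of a value therefore cannot be stated.

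The arcuate nucleus lies at the base of the hypothalamus beside the third ventricle and reads hormones and nutrients from the blood. Its Pomc neurons make melanocortin peptides that lower food intake, and its Agrp neurons make AgRP and neuropeptide Y, which raise it. Other arcuate neurons make kisspeptin, neurokinin B and dynorphin, growth hormone releasing hormone, somatostatin or dopamine and act on the pituitary and on reproduction. Tanycytes, ependymal cells of the ventricle floor, border the nucleus, and neuropeptide genes with their processing enzymes and secretory granule proteins are typical of its transcriptome.

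Expression spanned from genes near the listing limit to 859 FPKM on average. Of the 13130 genes, 11863 had a mean of at least 1 FPKM, 3565 of at least 10 FPKM and 156 of at least 100 FPKM, and the median gene was at 4.95 FPKM. The 10 highest genes held 2.91% ± 0.0991 of the summed FPKM, the 100 highest 15.2% ± 0.733 and the 1000 highest 47.2% ± 1.10. The order of genes was nearly that of the manipulated libraries. There, 85 of the 100 highest genes and 20 of the 25 highest were also among the 100 and the 25 highest, and the mean levels of wild type and manipulated libraries had a Pearson correlation of 0.974 across genes.

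Eef1a1, which encodes the elongation factor that brings aminoacyl-tRNA to the ribosome, had rank 1 by mean level. It was at 833, 901, 893 and 807 FPKM, a mean of 859 ± 46.01 FPKM. No library departed far from the others for this gene. Eef1a1 was the highest gene in male replicate 2 and female replicate 2, whereas Apoe was highest in male replicate 1 and mt-Cytb in female replicate 4. Sparcl1, a matricellular protein secreted by astrocytes, followed at rank 2 with 369.9, 459, 460.2 and 468 FPKM. Ckb, brain creatine kinase, was at 425, 487, 425 and 370.0 FPKM, and Cst3, the secreted protease inhibitor cystatin C, was at 503, 445, 429.8 and 333 FPKM. Male replicate 1 was the lowest of the 4 for Sparcl1 and the highest for Cst3. Cpe, the carboxypeptidase that trims neuropeptide precursors, ranked 5 at 313, 340.1, 419.6 and 437 FPKM. Scg2, a granin of dense core vesicles, ranked 11 at 298, 369.8, 371 and 310.2 FPKM. A peptide processing enzyme and a granule protein thus stood among the 25 highest genes, at levels close to those of Pkm, the glycolytic pyruvate kinase, at 324, 416, 375 and 318 FPKM.

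The remaining members of the 25 highest genes fell into a few groups. Translation was represented by Eef2, the translocation factor, with a mean of 349.9 ± 33.2 FPKM, and by the ribosomal proteins Rpl8 at 339.6 ± 36.4, Rps15 at 307 ± 23.4, Rps3a1 at 261 ± 23.6, Rpl37a at 258 ± 51.3 and Rpl4 at 253 ± 3.85 FPKM. Glia and lipid metabolism were represented by Apoe, the lipid carrier of astrocytes, Glul, the glutamine synthetase of astrocytes with 314 ± 26.3 FPKM, Ndrg2 with 283 ± 102 FPKM and Scd2, a fatty acid desaturase, with 326 ± 33.8 FPKM. Calm2, 1 of the genes that encode calmodulin, had 326 ± 59.9 FPKM, and Hsp90ab1, a chaperone, 249 ± 30.1 FPKM. Among the others were Actb (cytoplasmic actin) with 349 ± 95.4 FPKM, Fth1 (ferritin heavy chain) with 363 ± 161 FPKM, Psap (the saposin precursor) with 259 ± 11.4 FPKM, Itm2c with 286 ± 29.5 FPKM and Ahi1 with 241 ± 28.2 FPKM. Their stability differed widely. Rpl4 was at 252, 258, 254 and 249.6 FPKM, an SD of 0.02 on the log2 scale. Apoe was at 862, 298, 238 and 171 FPKM, an SD of 1.01, and Fth1 at 299, 397, 188 and 568 FPKM, an SD of 0.67. Male replicate 1 held the high value of Apoe, so that its mean of 392 FPKM stood above its median of 268 FPKM, and female replicate 4 held the high value of Fth1.

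**Figure D1:**
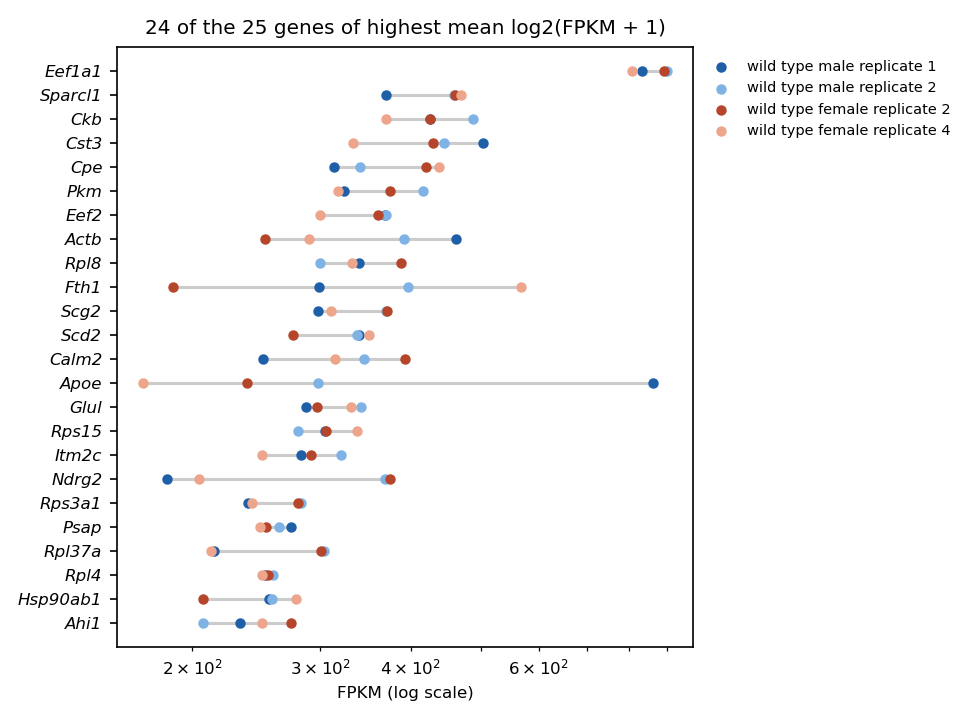
FPKM (log axis) of 24 of the 25 genes of highest mean log2(FPKM + 1), with 1 point for each of the 4 wild type libraries and a grey line from the lowest to the highest. Eef1a1 lies between 807 and 901 FPKM, and Apoe spans 171 to 862 FPKM and lies above Eef1a1 in male replicate 1.

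Of the 100 highest genes, 48 belonged to at least 1 of 28 gene lists. The cytosolic ribosomal proteins were the most numerous, with 24 of 78 members. The oxidative phosphorylation subunits and the pan-neuronal genes each had 4 members there, of 81 and 19. The astrocyte markers, the genes for peptide processing and granules, the calmodulin and calcium signalling genes and the heat shock genes each had 3. Among other hypothalamic peptides there were 2, Pmch and Avp. None of the 16 arcuate neuropeptides reached the 100 highest.

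**Figure D2:**
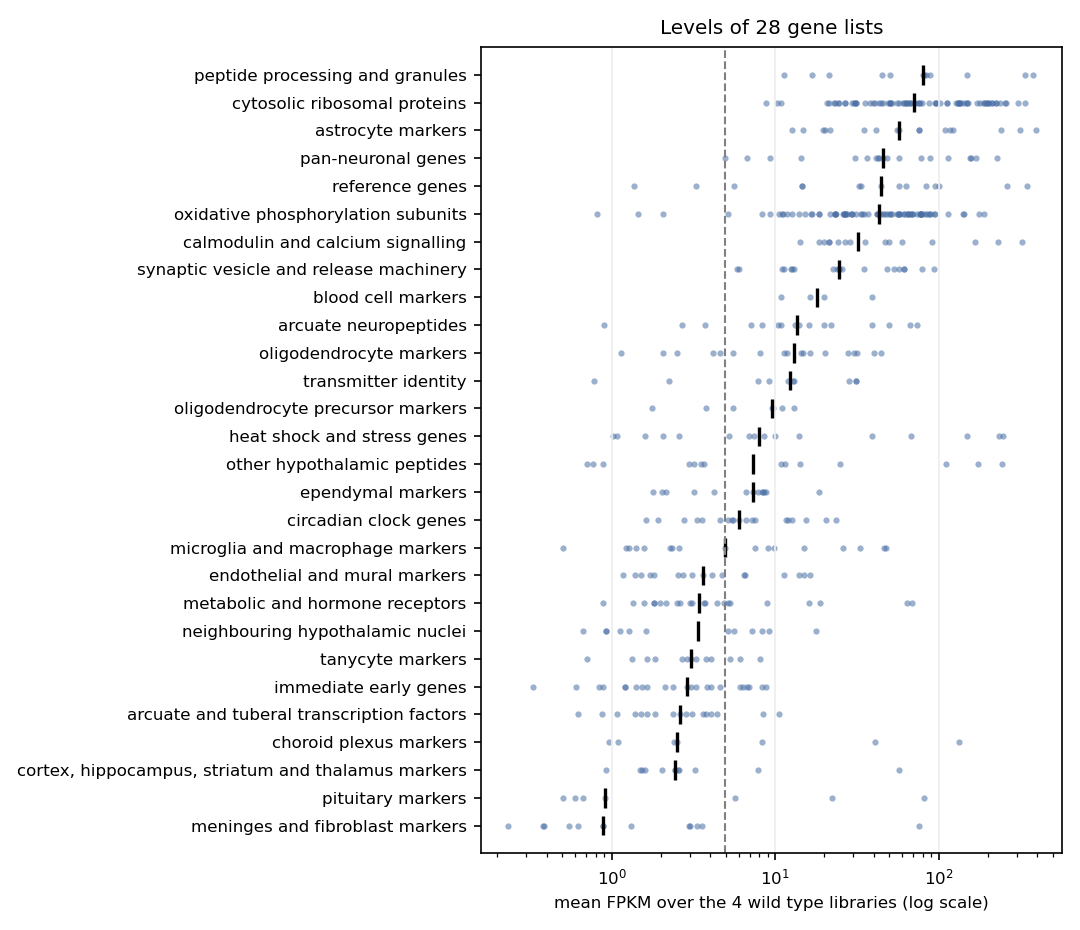
Mean FPKM over the 4 wild type libraries (log axis) of each measured member of 28 gene lists, with 1 point per gene, a black bar at the list's median and a dashed line at the median of all 13130 genes, 4.95 FPKM. The list medians run from 0.891 FPKM for meninges and fibroblast markers to 80.6 FPKM for peptide processing and granule genes.

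Among the arcuate neuropeptides, Npy, Cartpt and Pomc were highest and all 16 list members were measured, with a median of 13.6 FPKM. Npy, neuropeptide Y, was at 83.1, 78.4, 75.1 and 59.9 FPKM, a mean of 74.1 ± 10.03 FPKM and rank 239. Agrp, the melanocortin receptor antagonist made by the same neurons, was at 21.7, 20.3, 19.95 and 17.5 FPKM, a mean of 19.9 ± 1.77 FPKM and rank 1485. Both were steady, with SDs of 0.20 and 0.13 on the log2 scale, and in each of the 4 libraries Npy was the higher. Pomc, the precursor of the melanocortins and of beta-endorphin, was at 60.9, 27.9, 37.4 and 71.7 FPKM, a mean of 49.5 ± 20.3 FPKM and rank 489. Cartpt, whose peptide lowers food intake and which Pomc neurons also express, was at 61.7, 119, 12.2 and 74.8 FPKM and ranked 424. These varied more, with SDs of 0.61 and 1.38, and they did not order the libraries alike. Male replicate 2 was highest for Cartpt and lowest for Pomc, and female replicate 2 was lowest for Cartpt.

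Genes of the kisspeptin neurons differed in both level and spread. Pdyn, the dynorphin precursor, was at 21.9, 22.9, 21.01 and 22.1 FPKM, and its SD of 0.05 was the smallest of the 30 measured peptide genes. Tac2, the neurokinin B precursor, was at 9.60, 6.07, 18.5 and 21.5 FPKM, an SD of 0.78. Kiss1, kisspeptin, was at 2.75, 0.516, 3.24 and 4.23 FPKM, an SD of 0.79. Male replicate 2 was the lowest library for Tac2 and Kiss1 and the highest for Pdyn. Trh, thyrotropin releasing hormone, had a mean of 39.2 ± 15.7 FPKM and ranked 663. Ghrh, growth hormone releasing hormone, was at 6.42, 13.3, 12.1 and 9.81 FPKM, with a mean of 10.4 ± 3.04. Sst, somatostatin, which restrains growth hormone release, was lower at 3.76, 3.64, 1.67 and 5.91 FPKM. The 5 remaining members with means from 7.08 to 16.1 FPKM were Penk (enkephalins), Npvf (RFamide peptides), Nts (neurotensin), Tac1 (substance P) and Gal (galanin). Nmu, neuromedin U, was lowest with 0.900 ± 0.295 FPKM. Membership of the list does not show that a transcript came from the arcuate nucleus, and which nucleus supplied each was not tested.

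Some peptides whose main source is known to lie outside the arcuate nucleus were high. Pmch, melanin concentrating hormone of the lateral hypothalamus, was at 112, 292, 345 and 229 FPKM, a mean of 244 ± 100.3 FPKM and rank 34, by mean above every arcuate peptide in the list. Avp, vasopressin of the supraoptic, paraventricular and suprachiasmatic nuclei, was at 154, 246, 219 and 77.6 FPKM and ranked 73. Oxt, oxytocin of the supraoptic and paraventricular nuclei, was at 133, 115, 97.01 and 98.05 FPKM and ranked 131. Male replicate 1 had the lowest Pmch and female replicate 4 the lowest Avp, while Oxt varied by an SD of 0.21. Hcrt, hypocretin of the lateral hypothalamus, was at 8.09, 26.01, 53.4 and 11.8 FPKM, an SD of 1.15. Its highest library, female replicate 2, was also that of Pmch, and male replicate 1 was the lowest for both. Vip, made in the suprachiasmatic nucleus, was at 10.5, 0.628, 0.565 and 0.193 FPKM, with male replicate 1 apart from the other 3. Gnrh1 had 3.53 ± 1.81 FPKM and Crh, corticotropin releasing hormone of the paraventricular nucleus, 0.709 ± 0.330 FPKM. Of the 14 measured members of the list of other hypothalamic peptides, 5 had a larger SD over the manipulated than over the wild type libraries and 9 a smaller one. Among the 16 arcuate neuropeptides, 12 had a larger SD over the manipulated libraries and 4 a smaller one. Avp had an SD of 0.74 in wild type and of 2.46 in the manipulated libraries, and Oxt of 0.21 and 1.48. Pmch went the other way, with 0.71 and 0.14, as did Vip, with 1.51 and 0.35.

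**Figure D3:**
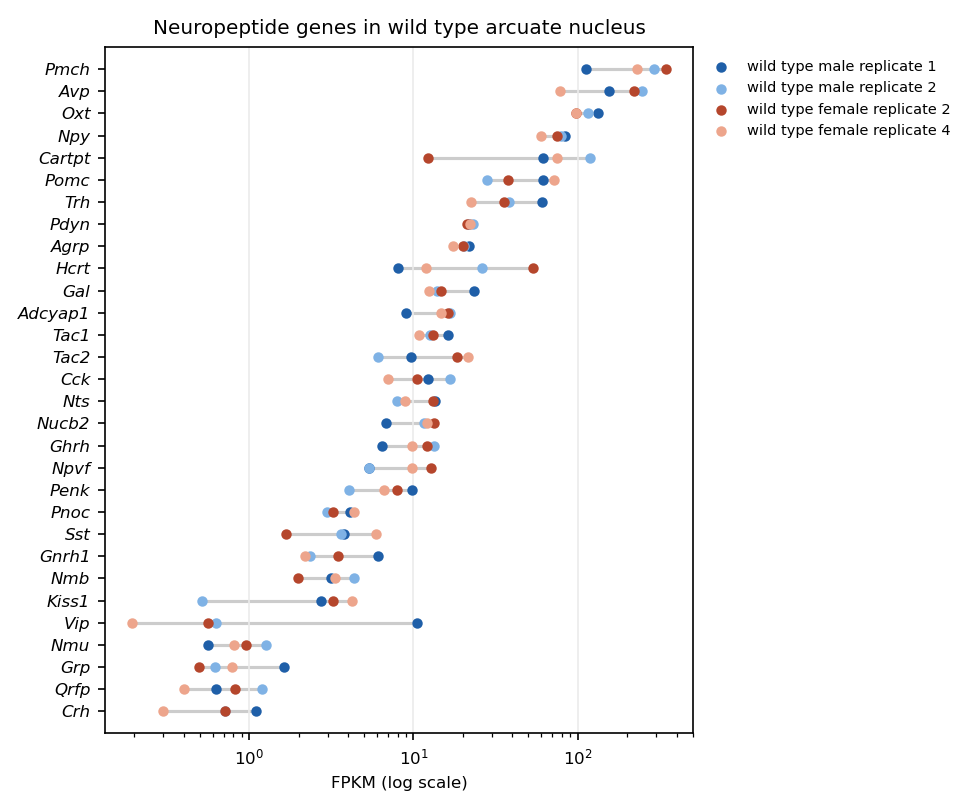
FPKM (log axis) of the 30 measured genes of the arcuate and the other hypothalamic peptide lists, ordered by mean level, with 1 point for each of the 4 wild type libraries. Pmch, Avp and Oxt lie above Npy by mean level, the 4 points of Pdyn and of Agrp nearly coincide, and Vip has 1 library at 10.5 FPKM and 3 at 0.628 FPKM or less.

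Promoter sequences of leading genes and of peptide genes are shown so that the letters just before the start of transcription stand beside the levels. They are the 100 bases before the annotated start of transcription, from the RefSeq promoters of GRCm38.p6, written 5′ to 3′ on the strand of the gene. Capitals mark TATAAA, the letters of the TATA box, where they start 40 to 20 bases before the start, or TGACGTCA, the letters of the cAMP response element, which reads the same on both strands.
Eef1a1, chr9:78481725-78481824, minus strand: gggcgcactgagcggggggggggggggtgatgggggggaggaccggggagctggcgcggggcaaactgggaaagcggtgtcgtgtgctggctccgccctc
Ckb, chr12:111672339-111672438, minus strand: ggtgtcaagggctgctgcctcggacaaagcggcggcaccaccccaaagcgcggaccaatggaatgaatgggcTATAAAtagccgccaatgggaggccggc
Scg2, chr1:79440027-79440126, minus strand: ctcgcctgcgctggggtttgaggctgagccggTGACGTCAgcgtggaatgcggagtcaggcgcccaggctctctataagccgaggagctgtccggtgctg
Pmch, chr10:88090972-88091071, plus strand: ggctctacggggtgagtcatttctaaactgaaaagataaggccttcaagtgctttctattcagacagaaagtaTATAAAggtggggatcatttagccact
Pomc, chr12:3954845-3954944, plus strand: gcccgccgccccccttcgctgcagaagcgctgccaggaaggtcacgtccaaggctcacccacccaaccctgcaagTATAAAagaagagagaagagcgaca
Npy, chr6:49822610-49822709, plus strand: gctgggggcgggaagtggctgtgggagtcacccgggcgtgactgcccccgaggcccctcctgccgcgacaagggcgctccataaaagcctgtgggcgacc
Sst, chr16:23890845-23890944, minus strand: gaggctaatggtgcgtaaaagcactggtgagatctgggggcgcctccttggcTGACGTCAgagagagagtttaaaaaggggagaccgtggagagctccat
Hcrt, chr11:100762932-100763031, minus strand: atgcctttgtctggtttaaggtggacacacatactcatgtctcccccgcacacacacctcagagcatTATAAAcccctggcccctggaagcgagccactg

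TATAAA began 27 bases before the start in Pmch, 25 in Pomc, 33 in Hcrt and 28 in Ckb, and TGACGTCA began 68 bases before the start in Scg2 and 48 in Sst. These letters were not found at those places in Eef1a1 or Npy. Only the exact letters were searched, so variants of these elements were not counted. A single promoter was listed for 7899 of the measured genes, among them 21 peptide genes of both lists. TATAAA on the sense strand, starting 40 to 20 bases before the start, was found in 5 of those 21 genes (23.8%), namely Pmch, Pomc, Hcrt, Npvf and Vip. Among the 54 genes of rank 1 to 100 with a listed promoter it was found in 3 (5.56%), and over all 7899 genes in 1.203%. TGACGTCA anywhere in the 300 bases from 250 before to 50 after the start was found in 4 of those 54 genes (7.41%), in 2 of the 21 peptide genes (9.52%) and in 3.42% of all. GGGCGG on either strand, the letters of the GC box, was found in 57.4% of genes of rank 1 to 100, 42.9% of the peptide genes and 66.9% of all. Peptide genes with TATAAA ranked from 34 to 10950 by level, and no test was made of these shares.

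The genes that process and package peptides were the highest list by median level, at 80.6 FPKM, and each of the 12 had a mean of at least 10 FPKM. Cpe and Scg2 led, as given above. Pcsk1n, the inhibitor of prohormone convertase 1, was at 209, 68.1, 141 and 177 FPKM, with male replicate 2 the lowest. Chga and Chgb, the chromogranins, had 83.4 ± 8.62 and 81.4 ± 13.5 FPKM, Vgf, a granin-like precursor, 50.3 ± 6.62 FPKM and Pam, the enzyme that amidates peptides, 45.1 ± 4.41 FPKM. The convertases that cut the precursors were lower. Pcsk2 was at 25.1, 25.3, 12.4 and 23.1 FPKM and Pcsk1 at 11.9, 18.2, 18.7 and 18.6 FPKM. Female replicate 2 was low for Pcsk2 and male replicate 1 for Pcsk1.

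Neuronal markers were high in all 4 libraries. The 19 pan-neuronal genes had a median of 46.0 FPKM and a summed level between 1316 and 1436 FPKM per library. Uchl1, a ubiquitin hydrolase of neurons, was at 282, 219, 187 and 220.3 FPKM and Tubb3, neuronal tubulin, at 148, 186, 184 and 157 FPKM. Other members over 100 FPKM were Stmn3 with 156 ± 17.1, Gap43 (growth cones) with 158 ± 33.3 and Thy1 (a neuronal surface protein) with 114 ± 7.38 FPKM. Between 40 and 90 FPKM were Syp, the synaptic vesicle protein, with 89.2 ± 10.8 FPKM, Eno2, neuronal enolase, with 78.2 ± 4.89 FPKM, Map2, a dendritic microtubule protein, with 57.2 ± 7.31 FPKM and Syt1, the calcium sensor of release, with 48.5 ± 5.14 FPKM, along with Syn1, Celf4, Snap25 and Nefl. Nefl, neurofilament light chain, had the largest spread of the list, at 52.5, 66.4, 39.5 and 10.9 FPKM. Nrgn, Stmn2, Elavl3, Elavl4 and Nefm followed, and Rbfox3, the nuclear antigen NeuN, was the lowest at 4.64, 3.95, 4.92 and 6.29 FPKM. Of the synaptic vesicle and release genes, with a median of 24.6 FPKM, Sv2a had 93.1 ± 5.46 FPKM and Nsf 61.3 ± 5.33 FPKM, while Vamp2, the vesicle SNARE, ranged from 8.28 FPKM in male replicate 2 to 83.7 FPKM in male replicate 1.

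Gad1, a marker of GABA neurons, and Slc17a6, a marker of glutamate neurons, were at similar levels. Slc32a1, another marker of GABA neurons, was lower, with a mean of 7.89 FPKM and rank 6952. These levels do not give the shares of the neuron classes. Gad1, which makes GABA, was at 32.6, 30.9, 25.8 and 35.6 FPKM, and Slc17a6, the vesicular glutamate transporter of the hypothalamus, at 25.03, 36.6, 31.2 and 32.9 FPKM. The ranges of these 2 genes overlapped and they ranked 819 and 816. Gad2 was at 45.1, 14.8, 34.3 and 18.8 FPKM and the vesicular GABA transporter Slc32a1 at 21.4, 1.09, 0.894 and 8.17 FPKM, an SD of 1.73, in which male replicate 1 and female replicate 4 were above the other libraries. Th, the first enzyme of dopamine synthesis, was at 9.67, 9.67, 16.7 and 15.3 FPKM and Ddc, the next, had 12.997 ± 1.47 FPKM. Hdc, which makes histamine in the tuberomammillary nucleus, was at 7.08, 13.8, 13.3 and 13.6 FPKM, with male replicate 1 low. The other 6 of the 16 members, among them Chat, Tph2 and Slc17a7, were not in both tables and were not analysed here.

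The glia and other cell types of the region could be ordered by list medians, which are levels and not shares of cells. Astrocyte markers had a median of 57.1 FPKM and all 17 had means of at least 10 FPKM. Apart from Apoe and Glul, Aldoc, the aldolase of astrocytes, was at 219.9, 251, 246 and 240.2 FPKM, Slc1a3, a glutamate transporter, at 74.4, 75.9, 73.4 and 81.1 FPKM, and Gfap, the astrocyte intermediate filament, had 35.1 ± 6.16 FPKM. Slc1a2, the other astrocyte glutamate transporter, was at 133, 38.1, 125 and 170.4 FPKM, low in male replicate 2. Oligodendrocyte markers followed with a median of 13.1 FPKM. Mbp, myelin basic protein, was at 11.3, 57.04, 42.97 and 50.6 FPKM, lowest in male replicate 1. Trf, which oligodendrocytes express strongly, had 44.1 ± 12.2 FPKM and Mal 31.5 ± 6.39 FPKM. Oligodendrocyte precursor markers had a median of 9.52 FPKM with little spread, as in Pdgfra, the growth factor receptor of these cells, at 8.87, 9.70, 9.44 and 10.1 FPKM, Bcas1 with 13.1 ± 0.650, Gpr17 with 9.77 ± 0.882 and Lhfpl3 with 11.04 ± 2.40 FPKM. Sox10, a factor of the whole lineage, ranged from 3.31 to 7.91 FPKM.

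Ependymal and tanycyte markers were detected at lower levels, with medians of 7.28 and 3.06 FPKM. Foxj1, the master factor of motile cilia, was at 8.45, 7.04, 9.91 and 8.64 FPKM, Rsph1, a ciliary protein, had 8.78 ± 0.845, Ccdc153 8.38 ± 3.28 and Pltp 18.5 ± 2.57 FPKM. Rax, a factor specific to tanycytes in the adult hypothalamus, was at 5.23, 3.17, 3.40 and 4.37 FPKM. Col25a1 had 6.06 ± 0.724, Scn7a 5.33 ± 1.31 and the intermediate filament Vim 8.13 ± 1.44 FPKM. Dio2, the tanycyte deiodinase that activates thyroid hormone, was at 0.00949, 1.55, 1.59 and 2.14 FPKM, far lower in male replicate 1. Microglia were represented by Ctss, a lysosomal protease, with 46.2 ± 6.65 FPKM and by Tmem119, more specific to them, at 3.80, 6.25, 4.90 and 4.76 FPKM. C1qa, a complement subunit, was at 56.3, 9.44, 37.6 and 29.7 FPKM. Cx3cr1, the fractalkine receptor, was at 9.30, 0.0366, 0 and 0 FPKM, listed at 0 in both female libraries. Its levels in the manipulated libraries were 7.43, 7.03, 7.17 and 0 FPKM. P2ry12, another microglial receptor, was at 1.66, 3.47, 3.01 and 0.938 FPKM and lowest in female replicate 4. Endothelial and mural markers had a median of 3.63 FPKM, with Itm2a at 16.4 ± 4.18, Vtn at 15.02 ± 1.90, the glucose transporter Slc2a1 at 13.9 ± 3.74 and the tight junction protein Cldn5 at 11.4 ± 3.77 FPKM, and Ly6c1 between 2.34 and 7.10 FPKM.

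Markers of choroid plexus and blood had the largest median SDs of the 28 lists, 0.94 and 0.75. Ttr, transthyretin of the choroid plexus, was at 4.68, 14.2, 510.0 and 5.03 FPKM, a median of 9.63 FPKM and an SD of 3.06. Enpp2, also high in choroid plexus, was at 21.9, 28.7, 90.6 and 21.1 FPKM and Clic6 at 1.80, 5.01, 14.6 and 11.8 FPKM. Female replicate 2 was the highest library for these 3 genes and for the other 4 measured members of the list, Prlr, Kl, Sostdc1 and Kcnj13. The summed level of the 7 choroid plexus markers was 629 FPKM in female replicate 2 and 33.8 to 53.3 FPKM in the other 3 libraries. Kcnj13, at 0.348, 0, 3.26 and 0.236 FPKM, was the only one listed at 0. Pituitary hormone genes were detected as well. Gh, growth hormone, was at 10.9, 61.9, 13.9 and 2.25 FPKM and Prl, prolactin, at 1.12, 6.46, 12.2 and 2.99 FPKM. Chgb, a granin that neurons express too, was the highest of the 7 measured pituitary markers in each library. The summed level of the other 6 was 14.03, 72.3, 28.3 and 7.78 FPKM, highest in male replicate 2 and lowest in female replicate 4. The hormone subunit genes Cga and Lhb reached at most 1.11 and 0.814 FPKM.

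Blood was seen through hemoglobin. Hbb-bs was at 36.9, 77.9, 27.1 and 15.3 FPKM, with Hba-a1 at 19.8 ± 9.43 and Hba-a2 at 16.3 ± 6.45 FPKM. The hemoglobin genes come in near-identical copies, between which reads may be split. The summed level of the 4 genes ran from 38.6 FPKM in female replicate 4 to 144 FPKM in male replicate 2. Meningeal markers had a median of 0.891 FPKM, and only Ptgds, which other brain cells make, exceeded 10 FPKM, with 75.8 ± 12.2 FPKM. No library stood highest throughout, as female replicate 2 was the highest for 4 of the 13 markers and each other library for 3. The part of adjacent tissue in the level or spread of any other gene was not tested.

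**Figure D4:**
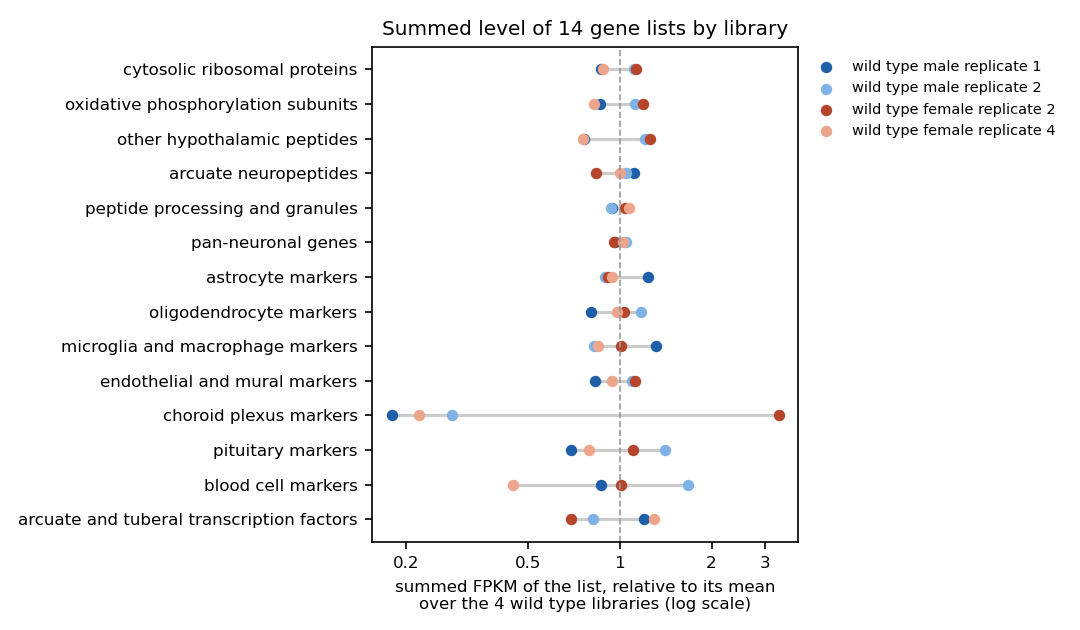
Summed FPKM of 14 gene lists in each of the 4 wild type libraries, divided by the list's mean over the 4 (log axis, dashed line at 1). Choroid plexus markers stand apart in female replicate 2, with 629 FPKM against 33.8 to 53.3 FPKM, whereas the pan-neuronal genes lie between 1316 and 1436 FPKM.

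Markers of hypothalamic position were low relative to the peptides. The 17 measured arcuate and tuberal transcription factors had a median of 2.61 FPKM. Otp was highest at 13.2, 6.97, 6.52 and 15.4 FPKM. Nkx2-1, needed for the ventral hypothalamus, was at 10.2, 7.04, 4.31 and 12.2 FPKM and Tbx3, a regulator of arcuate peptide neurons, at 4.05, 2.27, 4.58 and 6.80 FPKM. Isl1, needed for Pomc expression, had 3.77 ± 0.507 FPKM. Pou3f2, which has a single exon, was listed at 0 in female replicate 2 and at 2.95 to 5.07 FPKM in the others. Genes of the neighbouring ventromedial nucleus were detected at comparable levels, with Nr5a1, its defining factor, at 5.87, 4.38, 5.08 and 5.18 FPKM and Fezf1 at 7.85, 8.32, 8.60 and 8.62 FPKM. Gpr101 had 17.9 ± 2.56 FPKM and Nptx2 9.19 ± 4.02 FPKM, and Sim1, which defines the paraventricular nucleus, 1.13 ± 0.223 FPKM. Of forebrain markers, Calb2 had 57.4 ± 5.09 FPKM and is known from hypothalamic neurons too. Others were low, with Rgs9 at 7.85 ± 0.818 and Ppp1r1b at 3.24 ± 0.352 FPKM. Drd1 was at 1.73, 1.85, 2.37 and 0.00497 FPKM, far lower in female replicate 4.

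Receptors through which the nucleus reads hormones and transmitters had a median of 3.40 FPKM over the 22 measured. Thra, a thyroid hormone receptor, was highest at 81.8, 68.3, 49.9 and 76.5 FPKM, ahead of Gabbr1, a GABA-B subunit, at 63.8, 60.9, 64.6 and 66.7 FPKM, and Cnr1, the cannabinoid receptor, at 17.4, 20.6, 17.7 and 19.9 FPKM. Receptors best known for feeding were far lower. Lepr, the leptin receptor, was at 1.19, 1.26, 2.02 and 1.87 FPKM, Insr, the insulin receptor, at 4.26, 3.66, 5.9976 and 6.61 FPKM and Ghsr, the ghrelin receptor, at 0.448, 2.66, 1.84 and 2.29 FPKM. Mc4r, the melanocortin receptor, was at 2.58, 1.95, 1.21 and 1.496 FPKM. Lepr had an SD of 0.24, close to that of the median gene, and Ghsr was lowest in male replicate 1. Npy2r, an autoreceptor of Npy neurons, was the most variable receptor, at 7.89, 0.0267, 0.589 and 3.92 FPKM. Esr1, the estrogen receptor, had 0.884 ± 0.335 FPKM and ranked 12051.

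Immediate early genes, which neuronal activity induces within minutes, had a median of 2.90 FPKM over 23 members. Egr1 was steady at 6.43, 5.71, 7.38 and 7.26 FPKM and Dusp6 was at 7.35, 3.84, 7.77 and 6.55 FPKM. Fos was at 4.35, 8.25, 13.3 and 1.84 FPKM, highest in female replicate 2. Junb was at 9.22, 14.6, 0.134 and 11.1 FPKM and Jun at 10.2, 10.7, 12.5 and 0 FPKM. The low library of Junb was female replicate 2 and that of Jun female replicate 4, and both genes have 1 or 2 exons. Circadian clock genes had a median of 6.05 FPKM. Csnk1d, a clock kinase, had 23.6 ± 4.62 FPKM, the nuclear receptor Nr1d2 20.4 ± 5.10 FPKM and the output factor Dbp 15.4 ± 5.88 FPKM, with Dbp between 9.02 and 23.3 FPKM. Per1 was at 8.35, 5.56, 6.98 and 9.21 FPKM and Bhlhe40, which represses clock genes, at 10.1, 2.61, 3.40 and 2.43 FPKM, high in male replicate 1. The hour of dissection was not given in the sources used here. Among heat shock genes Hspa8 had 234 ± 36.5 and Hsp90aa1 148 ± 29.7 FPKM, while the inducible Hspa1a was listed at 0 in 3 libraries and at 4.06 FPKM in male replicate 1. Hspa1b, its near-identical neighbour, was at 2.94, 0, 3.61 and 3.71 FPKM, so the split of reads between the pair is uncertain.

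Summed transcript levels of ribosomal proteins and of oxidative phosphorylation subunits were higher in the same libraries. The summed level of the 78 cytosolic ribosomal protein genes was 6816, 8776, 8930 and 6940 FPKM, and that of the 81 oxidative phosphorylation subunits was 3485, 4561, 4815 and 3335 FPKM. Male replicate 2 and female replicate 2 were the higher libraries in both. Transcripts of these lists are short, with median lengths of 1077 and 1129 bases against 3473 bases over all genes. When genes with at least 5 FPKM were divided into 5 equal classes by length, the median departure from the gene's mean log2 level was -0.08, 0.07, 0.10 and -0.03 over the 4 libraries in the shortest class. In the class of lowest GC content it was -0.19, 0.02, 0.10 and 0.13, and in that of highest GC content 0.10, -0.05, -0.05 and 0.04. Length and GC content thus moved with the library, male replicate 1 standing lowest for low GC content, and their part in the list sums was not tested. Within the mitochondrial list Atp5a1 had 189 ± 33.3 FPKM, Atp5b 176 ± 18.1 FPKM and Cox6b1 143 ± 40.7 FPKM, and Cox8a, of cytochrome oxidase, was at 91.04, 120.2, 108 and 6.26 FPKM, low in female replicate 4. Rpl41, the shortest ribosomal protein, was at 34.2, 264, 176 and 111 FPKM, an SD of 1.26. Among calmodulin and calcium signalling genes, Calm3 had 229.7 ± 42.1 FPKM.

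Over the 4 libraries, some genes in common use as references were less steady than the median gene. Ppia, cyclophilin A, was at 78.6, 129, 114 and 81.9 FPKM, an SD of 0.35. Gapdh was at 28.7, 49.3, 34.998 and 21.6 FPKM, an SD of 0.49, and Actb at 461, 391, 252 and 289.9 FPKM, an SD of 0.40. The median gene had an SD of 0.23. Within the male and female groups, pooled, the SD was 0.42 for Ppia, 0.51 for Gapdh and 0.16 for Actb. The median gene had 0.21 there, so Actb was steadier than it within the groups. Both male values of Actb were above both female values. The steadiest genes above 20 FPKM were others. Pink1, a mitochondrial quality kinase, was at 66.4, 66.8, 67.4 and 67.6 FPKM, an SD of 0.012. Ap3d1, an adaptor subunit of vesicle traffic, was at 33.3, 33.7, 34.01 and 33.4 FPKM and Hagh, a glyoxalase, at 24.1, 24.6, 24.5 and 24.1 FPKM. Chd5, a neuronal chromatin remodeller, Cygb, cytoglobin, Sybu, which links vesicles to kinesin, Ube2v1, Eef1g, Rpl4 and Supt6 completed the 10, with SDs from 0.017 to 0.023. The choice of the smallest SDs fixes that these are small, and in the manipulated libraries, whose median SD over all genes was 0.22, these 10 ran from 0.09 for Rpl4 to 0.51 for Cygb.

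Spread over the wild type libraries was small for most genes, with a median SD of 0.23 on the log2 scale and quartiles of 0.15 and 0.36. Within the male and female groups alone, pooled, the median was 0.21. The SD was under 0.1 in 1425 genes (10.9%) and over 1 in 458 genes (3.49%). The latter count depends on the scale, and was 980 with a pseudocount of 0.1 and 927 with each library scaled to the same sum. In the manipulated libraries 445 genes had an SD over 1, and 251 genes did so in both sets, which is 54.8% of the wild type and 56.4% of the manipulated genes. The SDs of both sets had a Spearman correlation of 0.42 across genes.

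The number of exons went with the spread. Among genes whose largest transcript has 1 exon, 48.9% of 229 had an SD over 1. The share was 26.3% of 499 genes with 2 exons, 8.89% of 731 with 3, 4.99% of 2005 with 4 to 5, 0.991% of 3934 with 6 to 10 and 0.175% of 5709 with more. The manipulated libraries gave 45.9%, 25.1%, 9.99%, 4.64%, 0.941% and 0.193% in the same classes. Genes with 3 exons or fewer made up 67.4% of those with an SD over 1 and 11.1% of all genes with an exon number. With a pseudocount of 0.1 they made up 56.5% of the genes with an SD over 1.

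**Figure D5:**
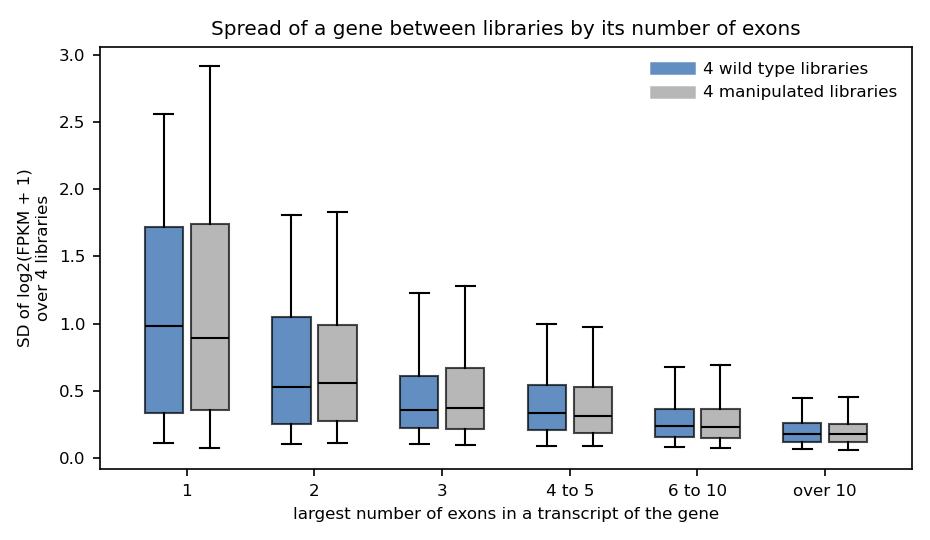
SD of log2(FPKM + 1) over the 4 wild type and over the 4 manipulated libraries by the largest number of exons in a transcript of the gene, with the median (line), the quartiles (box) and the 5th and 95th percentiles (whiskers) of the genes in each class. The wild type median falls from 0.98 for genes with 1 exon to 0.18 for genes with over 10.

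The most variable genes that were above 0 in each library and at 5 FPKM or more on average were high in some libraries and low in others. Mrfap1 was at 182, 0.708, 193 and 196 FPKM, Timm8b, a mitochondrial import chaperone, at 58.6, 0.322, 0.335 and 94.5 FPKM and Ywhah, the 14-3-3 protein eta, at 91.4, 0.591, 88.5 and 1.21 FPKM. The low library was male replicate 2 alone for Mrfap1, male replicate 2 and female replicate 2 for Timm8b, and male replicate 2 and female replicate 4 for Ywhah. Basp1, a growth cone protein, was at 147, 5.60, 1.36 and 152 FPKM and Trim32, a ubiquitin ligase, at 32.6, 0.772, 0.354 and 36.5 FPKM. Kcnj10, the potassium channel of astrocytes, was at 55.7, 43.1, 0.366 and 71.8 FPKM, far lower in female replicate 2, where Aldoc and Slc1a3 were at 246 and 73.4 FPKM. Ubb, a polyubiquitin gene, was at 18.9, 589.9, 512 and 519 FPKM, low in male replicate 1. The mitochondrial gene mt-Cytb was at 2.2e-05, 367, 428 and 1154 FPKM. Hist1h2bg was at 3.99, 62.6, 47.6 and 1.23 FPKM, Higd2a at 43.01, 0.722, 19.05 and 52.4 FPKM and Slc35g2 at 18.96, 20.9, 0.0203 and 19.9 FPKM. All of these but Basp1, with 3, have 1 or 2 exons, and Ttr, the remaining gene of the 12, has 4.

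Exact zeros followed the same classes. Of all genes, 276 were listed at 0 in 1 to 3 wild type libraries and 7 in all 4. A zero occurred in 66.4% of genes with 1 exon, 13.8% of those with 2 and 0.105% of those with more than 10. Of the 276 genes, 68 had a mean of at least 5 FPKM, and 64 of these (94.1%) have 3 exons or fewer, 15 are histone genes and 47 were also at 0 in a manipulated library. Hist1h4c was listed at 0, 284, 251 and 193 FPKM and Hist1h4h at 132, 176, 0 and 0 FPKM. Hist1h1e was listed at 0, 119.6, 0 and 72.5 FPKM. Male replicate 2 was above 0 for these 3 genes, and none of the other libraries was at 0 for all 3. The other 5 genes of highest mean in this class were Hist1h4m, Hist1h4n, Hist1h4a, Gm10076 and Tspyl4, the last at 0, 0, 3.66 and 139 FPKM. Histone genes have near-identical copies and mostly lack a poly(A) tail, so values from libraries selected with oligo(dT) are uncertain for them. An exact 0 beside values of this size may be an estimate that failed and is not read as absence.

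Against the 4 manipulated libraries, 3 genes passed the test. The fit with limma on log2(FPKM + 1), with sex as a covariate and Benjamini-Hochberg adjustment over 13025 genes, called 3 genes (0.023%), 1 higher and 2 lower in the manipulated libraries, and 700 genes had an unadjusted p under 0.05. All 4 values of a set lay above or below all 4 of the other in 432 genes (3.32%). Nhlrc1, which encodes malin, a ubiquitin ligase of glycogen metabolism, was listed at 0 in all 4 wild type libraries and at 8.23, 8.95, 10.01 and 8.67 FPKM in knockout replicates 1 and 2 and sponge replicates 1 and 2 (limma, adjusted p = 3.9e-05). The sets did not overlap, and the gene has 1 exon, the class in which zeros were most frequent. Nhlrc1 passed the filter of 0.5 FPKM on the mean of all libraries only through the manipulated ones. Its equal zeros in wild type hold no spread, so its p is not read as support for a difference. Ankrd34a was at 10.98, 6.496, 7.79 and 8.73 FPKM in wild type and at 0.0953, 0.174, 0.0643 and 0 FPKM in the manipulated libraries, a difference of -3.11 ± 0.16 (SE) on the log2(FPKM + 1) scale (limma, adjusted p = 0.000782). Zfp664 was at 10.9, 6.73, 8.46 and 10.3 FPKM in wild type and at 1.61, 2.20, 1.94 and 1.48 FPKM in the manipulated libraries, a difference of -1.83 ± 0.17 (SE; limma, adjusted p = 0.0417). All 4 wild type values were above all 4 others for both. Ankrd34a has 2 exons, and 26.3% of genes with 2 exons had an SD over 1 in wild type. It passed the filter of 0.5 FPKM only through the wild type libraries, so its p is not read as support either. Zfp664 lost its call when any 1 library other than wild type male replicate 2 was left out, with adjusted p between 0.0755 and 0.164. Among genes with a mean of at least 5 FPKM, which leaves out Nhlrc1 and Ankrd34a, limma called 0, with 312 at an unadjusted p under 0.05 and an adjusted p of 0.137 for Zfp664.

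The median log2 difference, manipulated minus wild type, was 0.00 over all genes tested, -0.03 over the 25 highest, 0.02 over the 16 arcuate neuropeptides, -0.01 over the 19 pan-neuronal genes and 0.21 over the 78 ribosomal proteins. Over the 28 lists it ran from -0.27 for the choroid plexus markers to 0.60 for the meningeal markers. It was 0.43 over the pituitary markers and -0.24 over the oligodendrocyte markers and over the synaptic vesicle and release genes. Of the 13 meningeal markers, 10 had an unadjusted p under 0.05 by limma, against 5.37% of all genes tested. None passed the adjustment, and the values of both sets overlapped for all 13. The list was chosen with earlier results of these data known, and its members may vary together. The count of 10 is therefore not a test of the list. The next genes by p did not pass the adjustment either. Fem1b was at 37.4, 48.3, 6.23 and 6.73 FPKM in wild type and at 2.77, 1.47, 0.0558 and 0.931 FPKM in the manipulated libraries (limma, adjusted p = 0.0913). D030056L22Rik was at 2.72, 0.0198, 0.0214 and 0.0206 FPKM and 11.7, 8.33, 12.7 and 8.64 FPKM (limma, adjusted p = 0.244). Fem1b and D030056L22Rik have 2 exons, like Ankrd34a. For Zfp157, Extl2, Zfp763, 2410131K14Rik and Erh the values of both sets did not overlap, and their adjusted p by limma ran from 0.0913 to 0.367. The genes named in this comparison were those of smallest p, so their lack of overlap adds no support. A p that misses the threshold does not show that levels were equal.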

How the data were processed

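The 4 wild type libraries, with the 4 manipulated ones for comparison, came from arcuate nuclei of 2 pooled mice each. Per the labels' protocols, oligo(dT)-selected RNA was made into stranded dUTP libraries and sequenced for 150 cycles from both ends. FastQC, cutadapt, HISAT2 2.0.4, StringTie 1.2.3 and the builds mm10 and GRCm38 are named per the submitters' processing notes, without settings or the annotation release. The authors deposited FPKM per gene and library, for which the series design text names Ballgown. StringTie spreads fragments over transcripts, so values below that of 1 read occur, and whole reads could not be recovered. The tables hold protein-coding genes that passed the authors' filter in a cohort, and a gene absent from either table was left out, including 382 genes of the authors' own comparison of both wild type groups.

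Genes were joined by identifier and described by the mean and SD of log2(FPKM + 1), with Python 3.11.15 and pandas 2.3.3. A wild type library had identical values in each table that lists it. limma 3.58.1 (R 4.3.3, empirical Bayes with a mean-variance trend) compared manipulated with wild type libraries, two-sided, on genes with a mean of at least 0.5 FPKM, with sex as covariate, and genes with an adjusted p under 0.05 were called. The fit was first tested on simulated data. The labels do not say that pools came from separate litters, so the p-values rest on differences between these pools, which may be technical. Sex goes with cohort, so the SD over 4 libraries holds both.

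Exon numbers, transcript lengths and GC content were taken from GENCODE M21, in which 13107 genes (99.8%) were found, and promoters from RefSeq. The genes named were the 25 of highest mean, 12 of largest SD, 8 highest among those with zeros, 10 of smallest SD, in each list the 3 highest and the most variable with every arcuate peptide and pan-neuronal gene, and up to 5 per direction against the manipulated libraries. Others, such as Lepr, Insr, Ghsr, Mc4r, Esr1, Hcrt, Gnrh1, Crh, Pcsk1, Pcsk2, Chga, Vgf, Pam, Th, Ddc, Hdc, Pdgfra, Slc1a2, Slc1a3, Gfap, Rax, Isl1, Cldn5, Tmem119, P2ry12, Nr5a1, Sim1, Fos, Per1, Hspa1b and Kcnj13, were chosen after their values were seen. Values of a few genes that this rule names are not reported here. The genes and the 28 lists were chosen with earlier results of these data known. Alternatives were another pseudocount, filter, scaling, ranking by the median, pooled SD within groups, a replicate block and leaving out each library.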

Additional observations from a re-analysis of the deposited data

Results flagged for a closer look

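In a group of 4 libraries, 1 library was taken to stand apart where its gap to the nearest other on the log2(FPKM + 1) scale, as a share of the whole range, exceeded the critical value of Dixon's test, which chance passes in about 1 in 20 groups. It was passed by 971 of the 13130 genes (7.40%), most often by male replicate 1, with 314 genes, against 214 to 225 for each of the other 3 libraries. Of the 223 genes examined by name, 24 passed it. Some of these 223 were named for a large or a small SD over these same 4 libraries. That choice fixes part of the count of 24, which therefore cannot be compared with the share of all genes.

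Male replicate 1 was low for Sparcl1 at 369.9 FPKM (next 459 FPKM), Ubb at 18.9 FPKM (next 512 FPKM), mt-Cytb at 2.2e-05 FPKM, Hist1h4c at 0 FPKM, Pcsk1 at 11.9 FPKM and Hdc at 7.08 FPKM. It was high for Vip at 10.5 FPKM, Cx3cr1 at 9.30 FPKM and Hspa1a at 4.06 FPKM.

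Male replicate 2 was low for Mrfap1 at 0.708 FPKM and was listed at 0 for Hist1h4m, Hist1h4a, Camk2n2 and Hspa1b. Female replicate 2 was low for Scd2 at 276 FPKM, Kcnj10 at 0.366 FPKM, Pcsk2 at 12.4 FPKM, Slc35g2 at 0.0203 FPKM and Junb at 0.134 FPKM, was listed at 0 for Gm10076 and was high for Kl, a choroid plexus gene, at 4.21 FPKM (next 1.88 FPKM). Female replicate 4 was low for Eef2 at 300.3 FPKM and Cox8a at 6.26 FPKM and was listed at 0 for Jun. The causes were not tested.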

How the results depend on the processing

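The 100 highest genes kept 92 to 100 members under each alternative tried, and their share of summed FPKM lay between 15.1% and 15.8%. The median SD lay between 0.20 and 0.30. The number of genes with an SD over 1 rose from 458 to 980 with a pseudocount of 0.1 and to 927 with each library scaled to the same, larger sum, both of which make the added constant smaller relative to the values. It was 463 to 486 with a library left out. With the pseudocount of 0.1, genes with 3 exons or fewer made up 56.5% of those with an SD over 1. The 68 genes listed at 0 in some libraries became 132 with a mean of at least 2 FPKM, and 45 to 57 with a library left out, the 45 without male replicate 2, whose zeros are then not counted. Leaving out 1 of 4 libraries cannot move the mean of a gene by 1 SD, so no stability is read from the levels recomputed that way.

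The 3 genes called against the manipulated libraries became 0 at a mean of at least 5 FPKM (limma, 312 genes at an unadjusted p under 0.05, smallest adjusted p 0.137), a filter that removes Nhlrc1 and Ankrd34a from the test. With the replicate number as a block, 0 were called (limma, 627 genes at an unadjusted p under 0.05, smallest adjusted p 0.103). That fit left out sponge replicate 1 and wild type female replicate 4, which have no same-numbered partner. Its loss of calls therefore cannot be credited to the block alone. Deviations of same-numbered libraries from their group means had a correlation of -0.00057 in males, where groups of 2 give both numbers the same value, and of 0.02 in females, so the numbers were not taken to pair the samples. Leaving out 1 library gave 2 to 6 calls, with 5 without sponge replicate 1 or wild type male replicate 1, and 6 without sponge replicate 2, wild type female replicate 2 or wild type male replicate 2. A lone library left in a group was assumed to vary like the others. D030056L22Rik was called without wild type male replicate 1 and Fem1b without sponge replicate 2. Depth is unknown, so how far counting error limits low values cannot be given.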
